A study of Homo sapiens with 6 samples.

Results

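The E2F genes E2F1 to E2F8, together with MYBL2 and FOXM1, are transcription factor genes that govern when cells copy their DNA and divide. They were taken by their symbols from the count tables and make up 10 of 27961 genes measured, beside 992 families of repeated sequence. All 10 passed the filter on low counts. The cells were SH-SY5Y, a line grown from a human neuroblastoma, and the cells of each library carried 1 of 3 lentiviral short hairpins: TRCN0000016038 against TARDBP (called the knockdown), or the controls SHC016 (control hairpin 2) and SHC007 (control hairpin 1), with 2 libraries per hairpin. The protein made from TARDBP is TDP-43, which binds RNA. All 3 groups had been spun with virus and 8 µg/mL polybrene and then kept in 2 µg/mL puromycin for 3 days, starting 48 hours after infection, so the controls share infection and selection with the knockdown. A single hairpin stood for the knockdown, and no untreated cells are among the 6 libraries. Nothing in the labels tells separate cultures from repeat libraries of 1 culture, so the p-values measure the spread between these libraries only, and that spread may be technical.

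E2F proteins bind DNA, mostly as pairs with a DP protein, at genes needed for the start of S phase. In resting and early G1 cells the pocket proteins RB1, RBL1 and RBL2 hold E2Fs silent. Cyclin-dependent kinases phosphorylate the pocket proteins in late G1 and set the E2Fs free. E2F1, E2F2 and E2F3 are the classical activators, E2F4 and E2F5 act mainly with pocket proteins as repressors, E2F6 represses with Polycomb partners, and E2F7 and E2F8 are atypical repressors that need no DP partner. MYBL2 (B-MYB) joins the MuvB complex and, with FOXM1, switches on the genes of G2 and mitosis. Resting cells use the same MuvB core, with E2F4 or E2F5 and a pocket protein, in the repressive DREAM complex. MYBL2, E2F1, E2F2, E2F7 and E2F8 are themselves E2F target genes. In bulk RNA, fewer cells expressing a gene and less RNA of it per cell cannot be told apart.

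Library totals ran from 18605745 to 21698339 counts, and libraries of one hairpin correlated at 0.989 to 0.99 (Pearson's r over rows tested, where rows are no replicates). TARDBP had 18.9 and 24.0 CPM (the count relative to TMM-scaled library size) in the knockdown, against 92.7 and 81.5 under control hairpin 2 and 80.9 and 72.4 under control hairpin 1 (log2FC -1.93 against the mean of both controls, SE 0.126, adjusted p = 1.68e-05). Of 9 sympathetic neuroblast markers 8 passed the filter, and TH, the enzyme that starts catecholamine synthesis, had 0 to 3 counts per library. The summed neuroblast markers reached 993 to 1120 CPM in the knockdown, 1360 to 1550 under control hairpin 2 and 1610 to 1860 under control hairpin 1. Against the mean of both controls 5 of the 8 fell and GATA3 rose (called under 12 of 14 alternatives). Of all rows 24.3% were lower and 23.9% higher. DBH had 25.5 and 14.7 CPM in the knockdown, 184 and 273 under control hairpin 2, and 288 and 430 under control hairpin 1. Fibroblast-type genes summed to 174 to 189 CPM in the knockdown, 1830 to 1950 under control hairpin 2 and 1470 to 1480 under control hairpin 1. Against the mean of both controls 5 of 7 fell (24.3% of all rows) and DCN, a proteoglycan gene, rose (23.9% of all rows). Most of that sum was the collagen gene COL3A1, at 52.0 and 63.7 CPM in the knockdown, 1583 and 1652 under control hairpin 2, and 1321 and 1307 under control hairpin 1, while THY1 was not called (log2FC -0.12). Immune markers summed to 5.92 to 9.88 CPM in the knockdown, 16.4 to 19.5 under control hairpin 2 and 6.68 to 6.86 under control hairpin 1. Nearly all of that was CD68, and PTPRC and CD14 had at most 9 counts per library. Schwann markers summed to at most 3.17 and endothelial markers to at most 0.93 CPM in any library. CD3E and CDH5, markers of T cells and endothelium, had no count. The part of these shifts in the results below was not tested.

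RefSeq promoter windows, from 250 bases before to 50 after a gene's start (GRCh38.p14), were read for 7 of the 10 genes. They are given for 5 genes here because 4 of these are well-known targets of E2F itself, while E2F3 is the activator whose level moved least. Capitals mark the words searched on both strands: the E2F consensus words TTTCCCGC, TTTCGCGC, TTTGCCGC and TTTGGCGC, the CHR words TTTGAA and TTCGAA, and the CCAAT box. Each line is written 5′ to 3′ on the strand of the gene. E2F1 is at chr20:33686336-33686635 (minus strand), E2F2 at chr1:23531184-23531483 (minus), E2F3 at chr6:20401629-20401928 (plus), E2F7 at chr12:77065520-77065819 (minus) and MYBL2 at chr20:43666864-43667163 (plus).
E2F1: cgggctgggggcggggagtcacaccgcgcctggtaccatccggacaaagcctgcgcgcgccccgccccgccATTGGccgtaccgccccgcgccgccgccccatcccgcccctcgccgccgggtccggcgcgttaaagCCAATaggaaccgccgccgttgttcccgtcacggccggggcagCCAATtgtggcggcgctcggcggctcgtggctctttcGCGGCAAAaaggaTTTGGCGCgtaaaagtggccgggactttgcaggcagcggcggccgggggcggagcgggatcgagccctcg
E2F2: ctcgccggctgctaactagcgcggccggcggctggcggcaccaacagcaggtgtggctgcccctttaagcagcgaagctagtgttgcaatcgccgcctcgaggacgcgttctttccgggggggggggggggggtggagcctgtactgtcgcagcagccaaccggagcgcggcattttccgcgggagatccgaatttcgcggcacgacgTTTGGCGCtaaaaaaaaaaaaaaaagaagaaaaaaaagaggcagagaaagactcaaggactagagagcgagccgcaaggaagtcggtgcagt
E2F3: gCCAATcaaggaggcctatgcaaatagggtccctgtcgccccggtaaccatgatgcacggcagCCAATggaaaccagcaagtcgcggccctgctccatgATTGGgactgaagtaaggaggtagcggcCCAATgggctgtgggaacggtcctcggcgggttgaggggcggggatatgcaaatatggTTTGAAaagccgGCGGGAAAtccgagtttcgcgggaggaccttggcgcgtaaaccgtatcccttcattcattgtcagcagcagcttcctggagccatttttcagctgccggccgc
E2F7: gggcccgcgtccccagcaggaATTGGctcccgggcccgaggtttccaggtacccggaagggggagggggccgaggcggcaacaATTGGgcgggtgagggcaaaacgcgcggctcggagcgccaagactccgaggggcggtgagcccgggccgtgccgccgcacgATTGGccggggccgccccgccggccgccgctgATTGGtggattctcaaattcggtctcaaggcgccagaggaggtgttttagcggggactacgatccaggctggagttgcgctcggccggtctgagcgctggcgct
MYBL2: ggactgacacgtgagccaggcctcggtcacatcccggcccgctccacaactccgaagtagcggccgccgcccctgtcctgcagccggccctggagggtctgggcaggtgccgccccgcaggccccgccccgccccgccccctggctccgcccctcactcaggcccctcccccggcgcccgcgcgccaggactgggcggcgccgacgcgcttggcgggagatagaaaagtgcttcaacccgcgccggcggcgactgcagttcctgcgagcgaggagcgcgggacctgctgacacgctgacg

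An E2F word lay in the windows of E2F1 (2 places), E2F2 (1 place) and E2F3 (1 place), against 3.31% of all 35116 windows of this length. E2F1 carried GCGGCAAA, the reverse complement of TTTGCCGC, from base -33 and TTTGGCGC from base -20 relative to its start. E2F2 carried TTTGGCGC from base -42, and E2F3 the reverse complement of TTTCCCGC from base -53. CCAAT boxes numbered 4 in E2F7, 4 in E2F3 and 3 in E2F1, and 34.6% of all windows held at least 1. A CHR word was found in E2F3 alone among the windows read (16.4% of all windows). Windows of E2F5, E2F8 and FOXM1 were not among those read, so nothing is said of their words. None of these exact words was found in the MYBL2 window, in those of E2F4 and E2F6, or in the downstream E2F3 window. A match describes letters only, and no match says only that these letters are not in this window.

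Against the mean of both control hairpins, 7 of the 10 genes fell in the knockdown: MYBL2, E2F2, E2F8, FOXM1, E2F1, E2F7 and E2F4. E2F5 and E2F6 rose, and E2F3 was not called. The falls spanned a log2 fold change (log2FC) of -6.21 in MYBL2 to -0.59 in E2F4, while the rises were 0.77 and 0.34. A call means an adjusted p below 0.05 in edgeR's quasi-likelihood test over all genes and families. Of 17163 rows tested 48.2% were called: 24.3% were lower and 23.9% higher, 4167 and 4102 rows, and upper quartile scaling turned that split to 3284 lower and 5678 higher. The median log2FC was -1.66 over the 10 genes and 0.04 over all rows. In each of the 7 genes that fell both knockdown libraries lay below all 4 control libraries, as they did in 22.8% of all rows. In E2F5 and E2F6 both lay above all 4, as in 23.3% of all rows.

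**Figure D1:**
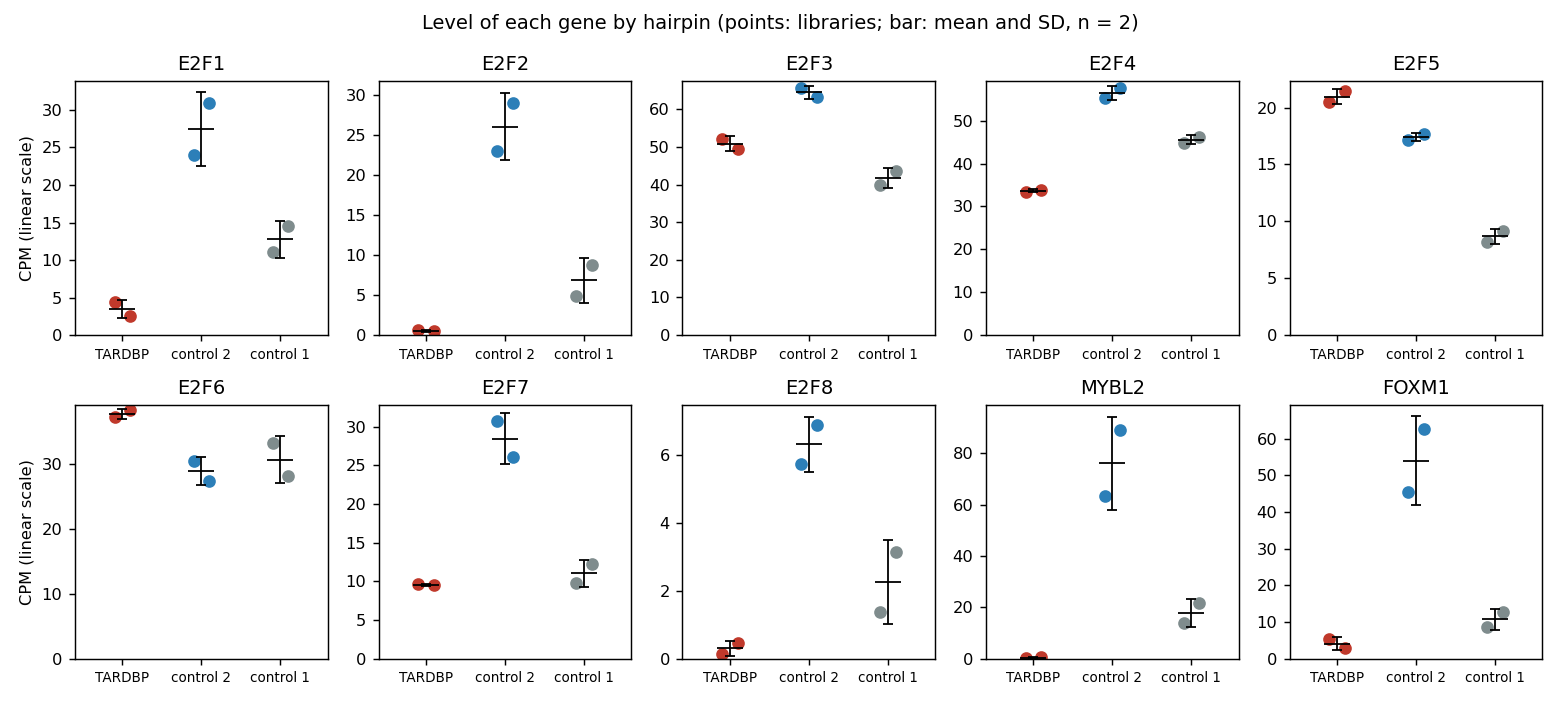
CPM of each gene (linear axis from 0) by hairpin, from left to right TARDBP, control 2 and control 1; points are libraries, bars the mean and SD (n = 2). MYBL2, E2F2 and E2F8 sat below 1 CPM in both knockdown libraries, while E2F5 and E2F6 were highest there.

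E2F1, the activator best known for driving S-phase entry, had 4.35 and 2.60 CPM in the knockdown, 24.0 and 30.9 under control hairpin 2, and 11.0 and 14.5 under control hairpin 1. The 3 groups did not overlap and stood in the order knockdown, control hairpin 1, control hairpin 2. Its log2FC was -2.98 (SE 0.254, adjusted p = 5.74e-05) against control hairpin 2 and -1.88 (SE 0.259, adjusted p = 6.73e-04) against control hairpin 1. Both comparisons use the same knockdown libraries.

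E2F2, a close relative of E2F1, had the largest fall of the activators. It had 12 and 9 counts in the knockdown, 438 and 616 under control hairpin 2, and 95 and 180 under control hairpin 1. The groups did not overlap. The levels were 0.544 ± 0.108 CPM in the knockdown, 26.0 ± 4.22 under control hairpin 2 and 6.83 ± 2.81 under control hairpin 1 (SD, n = 2 each). The log2FC was -5.57 (SE 0.361, adjusted p = 1.68e-05) and -3.64 (SE 0.396, adjusted p = 2.02e-04) against control hairpins 2 and 1. The knockdown level was 2.11% of control hairpin 2 by the fit. Counting error alone gives 2.08% (exact 95% interval 1.28 to 3.19%), and such intervals cover counting error only, since reads without molecular identifiers are not independent molecules.

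E2F3, the third activator, stood between the controls. It had 52.2 and 49.5 CPM in the knockdown, against the 65.7 and 63.4 CPM of control hairpin 2 and the 39.8 and 43.5 CPM of control hairpin 1. It was lower than in control hairpin 2 (log2FC -0.34, SE 0.0940, adjusted p = 0.0159) and higher than in control hairpin 1 (0.29, SE 0.0950, adjusted p = 0.0386), so the direction turned with the control used. The second of these calls was lost under 9 of 13 alternatives, among them leaving out any one of the 6 libraries (adjusted p up to 0.207). The first was lost without knockdown replicate 2 (adjusted p = 0.0913), without control hairpin 2 replicate 1 (0.0762) and under upper quartile scaling (0.115). Against the mean of both controls the log2FC was -0.03 (95% confidence interval -0.22 to 0.16, adjusted p = 0.802), and its sign turned under upper quartile scaling (0.10).

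E2F4, the main E2F of resting cells, fell by a small amount. It had 33.4 and 33.9 CPM in the knockdown, against 55.3 and 57.5 under control hairpin 2 and 44.8 and 46.3 under control hairpin 1. The 3 groups were apart. The log2FC was -0.75 (SE 0.0912, adjusted p = 3.29e-04) against control hairpin 2 and -0.44 (SE 0.0914, adjusted p = 0.00542) against control hairpin 1.

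E2F5, which also works with pocket proteins, went the opposite way. It had 20.5 and 21.4 CPM in the knockdown, 17.2 and 17.7 under control hairpin 2, and 8.21 and 9.16 under control hairpin 1. All groups were apart, and the knockdown was highest. The log2FC was 0.27 (95% confidence interval -0.01 to 0.54, adjusted p = 0.0934) against control hairpin 2, a difference called under upper quartile scaling (0.41, adjusted p = 0.0181), and 1.27 (SE 0.126, adjusted p = 1.27e-04) against control hairpin 1. With the 4 control libraries pooled as 1 group E2F5 was no longer called (log2FC 0.68, adjusted p = 0.228). C8orf59, which overlaps E2F5 on the other strand in GENCODE 29, was called in no comparison between hairpins (log2FC 0.17, adjusted p = 0.294, against the mean of both controls).

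E2F6, which lacks an activation region and silences genes with Polycomb proteins, had 37.3 and 38.4 CPM in the knockdown. Control hairpin 2 gave 30.5 and 27.4 CPM, and control hairpin 1 gave 33.3 and 28.2. The knockdown libraries were above all 4 controls, and the controls overlapped each other. The rise against the mean of both controls was a log2FC of 0.34 (SE 0.101, adjusted p = 0.0225). The call was lost without either knockdown library (adjusted p = 0.0763 and 0.114), without replicate 2 of control hairpin 1 (0.0648) or of control hairpin 2 (0.0941), and with pooled controls (0.124). Against control hairpin 2 the log2FC was 0.39 (adjusted p = 0.0256), lost without knockdown replicate 1 (0.0666), knockdown replicate 2 (0.0993) or replicate 2 of that control (0.202). Against control hairpin 1 it was 0.30 (adjusted p = 0.0719), called under upper quartile scaling (0.026). E2F6 was the one gene of the 10 that was not called between the control hairpins (log2FC -0.09, adjusted p = 0.589).

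E2F7, an atypical E2F that represses E2F targets in late S and G2 phase, depended on the control. It had 9.67 and 9.50 CPM in the knockdown, 30.7 and 26.1 under control hairpin 2, and 9.84 and 12.2 under control hairpin 1. The knockdown lay below both controls, next to control hairpin 1. The log2FC was -1.57 (SE 0.151, adjusted p = 1.03e-04) against control hairpin 2. Against control hairpin 1 it was -0.20 (95% confidence interval -0.56 to 0.15, adjusted p = 0.326), which does not show that the levels were equal. The fall against the mean of both controls (-0.89, SE 0.137, adjusted p = 0.00109) was lost with pooled controls (-1.04, adjusted p = 0.205).

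E2F8, the other atypical E2F, had the lowest mean level of the 10 per exon length, though its knockdown libraries overlapped those of E2F2. It had 3 and 9 counts in the knockdown, 109 and 146 under control hairpin 2, and 27 and 64 under control hairpin 1. The 3 groups were apart. The log2FC was -4.32 (SE 0.501, adjusted p = 2.57e-04) against control hairpin 2 and -2.84 (SE 0.565, adjusted p = 0.00421) against control hairpin 1. Summed over libraries and scaled, the knockdown level was 4.91% of control hairpin 2 (exact 95% interval for counting error 2.5 to 8.72%) and 13.7% of control hairpin 1 (6.82 to 25.1%). E2F7 minus E2F8 was 5.25 and 4.08 in the knockdown, 2.40 and 1.91 under control hairpin 2, and 2.75 and 1.93 under control hairpin 1 (log2 CPM), so the pair stood further apart in the knockdown libraries.

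MYBL2, the MYB-family activator of the MuvB complex, showed the strongest fall. It had 9 and 10 counts in the knockdown, against 1203 and 1888 under control hairpin 2 and 276 and 446 under control hairpin 1. The levels were 0.492 ± 0.0380 CPM in the knockdown, 76.1 ± 18.1 under control hairpin 2 and 18.0 ± 5.49 under control hairpin 1 (SD, n = 2 each). The log2FC was -7.26 (SE 0.347, adjusted p = 5.27e-06) against control hairpin 2 and -5.17 (SE 0.369, adjusted p = 2.61e-05) against control hairpin 1. All libraries of the 3 groups were apart. In the fit MYBL2 stood at 0.655% and 2.77% of control hairpins 2 and 1. Its log2FC against the mean of both controls ranked 9 from the bottom of 17163 rows.

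FOXM1, the forkhead factor that drives mitotic genes, had 5.43 and 2.86 CPM in the knockdown, 45.3 and 62.5 under control hairpin 2, and 8.72 and 12.7 under control hairpin 1. The 3 groups were apart, by the least between the knockdown and control hairpin 1. The log2FC was -3.70 (SE 0.301, adjusted p = 4.70e-05) against control hairpin 2 and -1.37 (SE 0.313, adjusted p = 0.00801) against control hairpin 1. The second call was lost without control hairpin 1 replicate 2 (log2FC -1.08, adjusted p = 0.0527). The call against the mean of both controls (-2.54, SE 0.281, adjusted p = 1.96e-04) was lost with pooled controls (-2.96, adjusted p = 0.0814). ITFG2 and RHNO1 overlap FOXM1 on the other strand in GENCODE 29, and the strand setting of the counting is not stated in the sources used here. Neither was called against the mean of both controls (log2FC -0.31 and 0.33, adjusted p = 0.0806 and 0.0569), and RHNO1 was higher than in control hairpin 1 (0.65, adjusted p = 0.00714), where FOXM1 was lower.

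**Figure D2:**
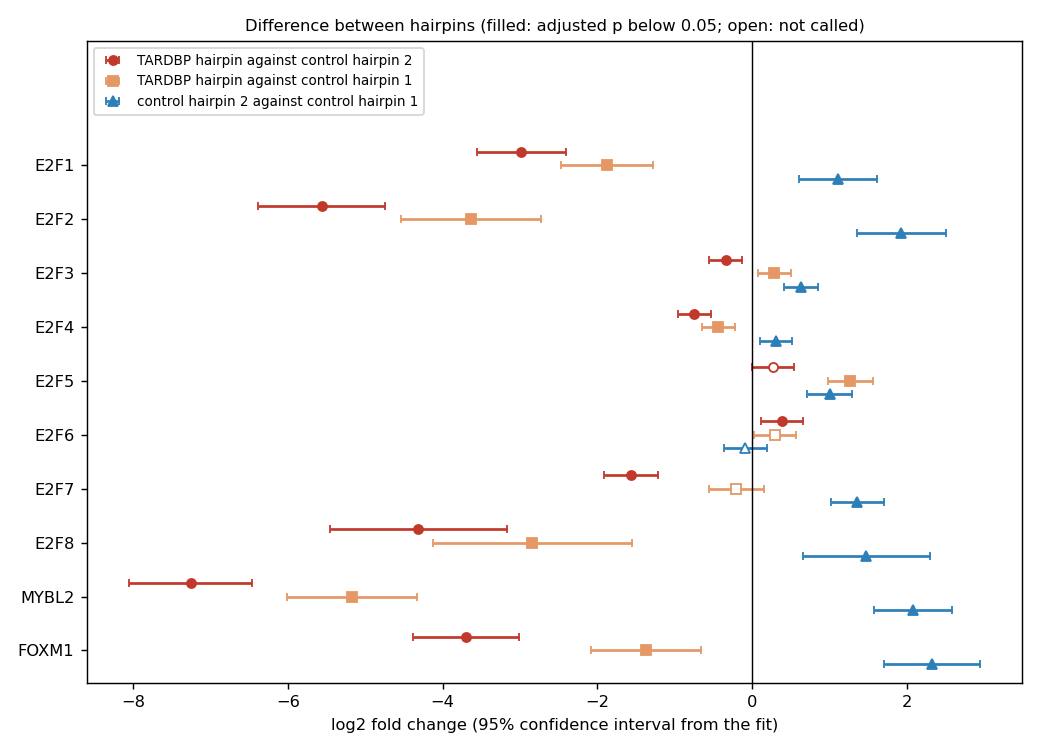
Log2FC with its 95% confidence interval from the fit for the TARDBP hairpin against control hairpin 2, the TARDBP hairpin against control hairpin 1, and control hairpin 2 against control hairpin 1; filled symbols are called (adjusted p below 0.05) and open ones are not. MYBL2, E2F2, E2F8, E2F1, FOXM1 and E2F4 lie left of 0 against both controls, and E2F3 changes side.

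Control hairpin 2 also differed from control hairpin 1. Of the 10 genes 9 were higher under control hairpin 2 and none was lower, where 43.2% of all rows were called, 22.8% higher and 20.4% lower. In the same 9 both libraries of control hairpin 2 lay above those of control hairpin 1, as in 37% of all rows (37.8% had them below). FOXM1 led with a log2FC of 2.33 (SE 0.270, adjusted p = 3.80e-04), followed by MYBL2 (2.08, SE 0.221), E2F2 (1.93, SE 0.253), E2F8 (1.48, SE 0.360), E2F7 (1.36, SE 0.149), E2F1 (1.10, SE 0.221), E2F5 (1.003, SE 0.126), E2F3 (0.63, SE 0.0947) and E2F4 (0.31, SE 0.0899). The call of E2F4 was lost without any one of the 4 control libraries (adjusted p up to 0.126). That of E2F8 was lost without replicate 1 of control hairpin 1 (log2FC 1.007, adjusted p = 0.0611) or replicate 2 of control hairpin 2 (1.35, adjusted p = 0.0675). TARDBP itself was not called between the controls (0.18, adjusted p = 0.273). In 6 genes, E2F1, E2F2, E2F4, E2F8, MYBL2 and FOXM1, the knockdown was lower than control hairpin 1 and control hairpin 1 lower than control hairpin 2, both called; 3.35% of all rows had this order.

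Against control hairpin 2 alone 8 of the 10 genes fell in the knockdown and 1 rose, where 50.2% of all rows were called (26.2% lower, 24% higher). In 8 the knockdown libraries lay below those of control hairpin 2 (37.8% of all rows) and in 2 above (38.5%). Against control hairpin 1 alone 6 fell and 2 rose, where 42.9% of all rows were called (21.8% lower, 21.1% higher). In 7 the knockdown libraries lay below those of control hairpin 1 (34.5% of all rows) and in 3 above (37.4%).

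The mean of the 3 activators moved further between the knockdown and the controls than the mean of the 5 repressors. Only changes between libraries are read from the class means, since genes of different length cannot be compared in CPM. The mean log2 CPM of E2F1, E2F2 and E2F3 was 2.46 and 2.08 in the knockdown, 5.05 and 5.27 under control hairpin 2, and 3.70 and 4.16 under control hairpin 1. For the 5 repressors E2F4 to E2F8 it was 3.20 and 3.45 in the knockdown, 4.47 and 4.46 under control hairpin 2, and 3.50 and 3.78 under control hairpin 1. Activators minus repressors gave -1.05 ± 0.447 in the knockdown, 0.70 ± 0.157 under control hairpin 2 and 0.29 ± 0.125 under control hairpin 1 on the log2 scale (SD, n = 2 each), and the knockdown libraries lay below all 4 control libraries. No p is given for this difference, since the genes were chosen with results of these data known.

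Neither class was uniform. Among the activators, the mean of E2F1 and E2F2 minus E2F3 was -5.10 ± 0.322 in the knockdown, -1.28 ± 0.283 under control hairpin 2 and -2.18 ± 0.349 under control hairpin 1 (log2 CPM, SD, n = 2 each). The pocket-protein pair E2F4 and E2F5 averaged 4.74 ± 0.0317 log2 CPM in the knockdown, 4.98 ± 0.0350 under control hairpin 2 and 4.32 ± 0.0721 under control hairpin 1. The atypical pair E2F7 and E2F8 averaged 0.94 ± 0.398 log2 CPM in the knockdown, 3.75 ± 0.00773 under control hairpin 2 and 2.30 ± 0.510 under control hairpin 1. In the same order the activators averaged 2.27 ± 0.269, 5.16 ± 0.152 and 3.93 ± 0.323, so these repressors fell nearly as far as the activators. Among the repressors E2F4, E2F7 and E2F8 fell against the mean of both controls, and E2F5 and E2F6 rose.

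**Figure D3:**
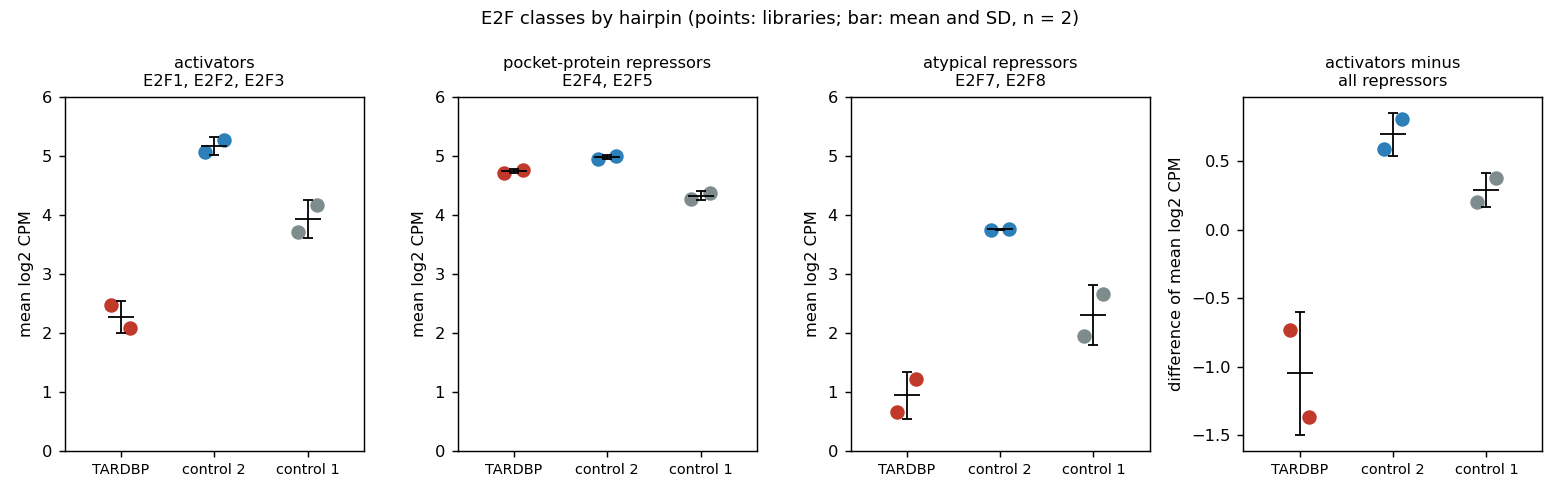
Mean log2 CPM of the activators, the pocket-protein repressors and the atypical repressors (first 3 panels, 1 common axis), and the difference of activators and all repressors including E2F6 (last panel), by hairpin; points are libraries, bars the mean and SD (n = 2). In the activators the knockdown libraries, at 2.46 and 2.08, are below all controls, and in the pocket-protein pair they lie between the controls.

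Count ratios within a library do not depend on how libraries are scaled. The ratio of E2F1 to E2F4 counts was 0.130 and 0.0766 in the knockdown, 0.433 and 0.537 under control hairpin 2, and 0.246 and 0.313 under control hairpin 1. That of E2F5 to E2F4 was 0.614 and 0.632 in the knockdown, 0.310 and 0.307 under control hairpin 2, and 0.183 and 0.198 under control hairpin 1. In both ratios the groups were apart in all libraries. The ratio of MYBL2 to FOXM1 counts was 0.0857 and 0.182 in the knockdown, against 1.40 and 1.42 under control hairpin 2 and 1.61 and 1.72 under control hairpin 1. Both knockdown libraries were below every control library, and the 4 controls lay within 1.40 to 1.72.

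Dividing CPM by the exon length in GENCODE 29, which may not be the annotation of the deposited counts, gives an approximate order of levels between genes. In the knockdown E2F4 led at 16.0 CPM per kb, followed by E2F6 (11.0), E2F5 (10.4) and E2F3 (9.85). E2F7 (1.67), E2F1 (1.39) and FOXM1 (1.14) came next, then MYBL2 (0.177), E2F2 (0.105) and E2F8 (0.0793). The libraries of E2F6, E2F5 and E2F3 were close but apart, those of E2F7 and E2F1 overlapped, and so did those of E2F1 and FOXM1. Those of E2F2 (0.120 and 0.0900) and E2F8 (0.0395 and 0.119) overlapped too, at few counts, so their order there is uncertain. Under control hairpin 2 MYBL2 (27.4 CPM per kb) and E2F4 (26.9) led and their libraries overlapped, followed by FOXM1 (14.8) and E2F3 (12.5), which also overlapped, and by E2F1 (11.0), which overlapped E2F3. Under control hairpin 1 E2F4 led alone (21.7), ahead of E2F6 (8.91), E2F3 (8.07) and MYBL2 (6.47); E2F3 overlapped both E2F6 and MYBL2, which did not overlap each other. By the mean E2F8 was last with every hairpin.

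The proteins that hold or pair with E2Fs were read as lists. Of the pocket protein genes, RB1 rose against the mean of both controls (log2FC 0.32, SE 0.0840, adjusted p = 0.0132), while RBL1 (-0.04) and RBL2 (-0.26) were not called. RBL2 was called lower than in control hairpin 1 (log2FC -0.75 to -0.36 over 13 alternatives, not called in all) but not against control hairpin 2. Between the controls 2 of the 3 genes were lower and 1 higher under control hairpin 2 (20.4% and 22.8% of all rows). RB1 was not called against control hairpin 1 (0.02) and its call against the mean was lost without either knockdown library or control hairpin 2 replicate 2 and with pooled controls (adjusted p up to 0.420 over all alternatives). Both DP partners fell against the mean of both controls. TFDP1, the main DP protein, had 12.5 and 13.8 CPM in the knockdown, 46.0 and 50.5 under control hairpin 2, and 40.0 and 41.3 under control hairpin 1. Its log2FC was -1.75 (SE 0.102, adjusted p = 1.14e-05), and it was not called between the controls (0.25, adjusted p = 0.0871). TFDP2 fell by 0.64 (SE 0.114, adjusted p = 0.00224), and its call was lost with pooled controls (adjusted p = 0.166). It was lower than in control hairpin 1 (-1.02, adjusted p = 4.25e-04) but not called against control hairpin 2 (-0.25, adjusted p = 0.132), and control hairpin 2 was itself lower than control hairpin 1 (-0.76, adjusted p = 0.00207).

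In the next 3 lists, counts for the mean of both controls are to be read against the 24.3% of all rows that were lower. Of 6 MuvB and DREAM genes 2 fell and none rose against the mean of both controls, namely the histone chaperone gene RBBP4 (log2FC -0.55, adjusted p = 5.40e-04) and the DNA-binding subunit gene LIN54 (-0.52, adjusted p = 0.00652, lost with pooled controls at adjusted p = 0.0556). LIN9, a MuvB scaffold subunit, was at -0.03 (adjusted p = 0.854). Against control hairpin 2 alone, where 26.2% of all rows were lower and 24% higher, 3 of the 6 fell (RBBP4, LIN54 and LIN9 at -0.46). The MuvB genes LIN37 (0.64, adjusted p = 0.0102) and LIN52 (0.48, adjusted p = 0.046) rose there. The call of LIN37 was lost without control hairpin 2 replicate 1 and that of LIN52 under 11 of 13 alternatives. Of 5 genes for the turnover of cell-cycle factors 3 fell (FZR1 -0.64, FBXO5 -0.62 and SKP2 -0.48) and none rose. FBXO5 and SKP2 were not called against control hairpin 1 (-0.26 and 0.03), and both calls were lost with pooled controls (adjusted p = 0.174 and 0.327). Of 9 Polycomb partners of E2F6, 3 fell (MAX -0.39, L3MBTL2 -0.43 and RYBP -0.35) and none rose. RYBP was not called against control hairpin 2 (-0.05), nor L3MBTL2 against control hairpin 1 (-0.33). L3MBTL2 lost its call under 6 of 14 alternatives, RYBP under 3 and MAX with pooled controls. The other MYB-family genes, MYB (-0.85) and MYBL1 (-0.58), fell against the mean of both controls but not against control hairpin 1, and both calls were lost without either knockdown library; MYB lost its call under 8 of 14 alternatives.

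Genes acting upstream, on the pocket proteins, fell in 7 of 14 tested and rose in 2, against 24.3% and 23.9% of all rows, with a median log2FC of -0.67. CDK6, a kinase that phosphorylates RB1, had 107 and 112 CPM in the knockdown, 464 and 449 under control hairpin 2, and 343 and 434 under control hairpin 1 (log2FC -1.95, SE 0.112). Its partner CCND1 had 455 and 460 CPM in the knockdown, 1132 and 1083 under control hairpin 2, and 1155 and 1114 under control hairpin 1 (log2FC -1.29, SE 0.0774). The cyclin E genes CCNE2 (-2.36) and CCNE1 (-0.90) fell as well. The call of CCNE1 was lost with pooled controls (adjusted p = 0.0927). Against control hairpin 1 it was lost under upper quartile scaling and DESeq2, among other alternatives. Kinase inhibitor genes went both ways. CDKN1A (1.21, SE 0.0820) and CDKN1B (0.30, SE 0.0833) rose, while CDKN2B (-2.82, adjusted p = 0.0359, at most 18 counts per library), CDKN1C (-0.81, adjusted p = 0.00233) and CDKN2D (-0.69, adjusted p = 0.0101) fell. None of these 3 falls was called against control hairpin 2 alone, and all 3 calls were lost with pooled controls (CDKN2B under 6 of 14 alternatives). The call of CDKN1B was lost without knockdown replicate 2, control hairpin 1 replicate 2 or control hairpin 2 replicate 1 and with pooled controls (adjusted p up to 0.189 over all alternatives). Of the 14 upstream genes 5 were higher and 2 lower under control hairpin 2 than under control hairpin 1 (22.8% and 20.4% of all rows). CCNE2 (log2FC 1.38) was among the higher. CDK6, CCND1 and CDKN1A were not called between the control hairpins (log2FC 0.23, -0.04 and 0.04), where 9 of the 10 regulators were. CDK6 was called there without control hairpin 1 replicate 2 (adjusted p = 0.0221).

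Most genes known as targets of these factors fell too. Of 29 G1/S genes controlled by E2F 24 fell and 1 rose against the mean of both controls (24.3% and 23.9% of all rows), with a median log2FC of -1.12 against 0.04 over all rows. CDC45, a replication helicase factor, had 6 and 6 counts in the knockdown, 284 and 304 under control hairpin 2, and 82 and 99 under control hairpin 1 (log2FC -4.68, SE 0.233). The chromatin factor gene UHRF1 (-2.11, SE 0.117) and the helicase gene MCM2 (-1.84, SE 0.113) also fell. TYMS, thymidylate synthase, was the rise (0.42, SE 0.103), and its call was lost without knockdown replicate 2 and with pooled controls (adjusted p up to 0.0971 over all alternatives). Against control hairpin 1 alone 16 fell and 2 rose (21.8% and 21.1% of all rows; median -0.45), and against control hairpin 2 alone 27 fell and 1 rose (26.2% and 24% of all rows; median -1.63).

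Of 30 G2/M genes controlled by MYBL2 and FOXM1, 27 fell and 2 rose (24.3% and 23.9% of all rows), with a median log2FC of -2.18. MKI67, the proliferation marker, had 22 and 17 counts in the knockdown, 3729 and 4439 under control hairpin 2, and 633 and 1327 under control hairpin 1. The topoisomerase gene TOP2A (-3.89, SE 0.248) and the spindle gene PRC1 (-2.45, SE 0.167) fell as well. The rises were ECT2, an activator of the GTPase that drives cytokinesis (0.90, SE 0.105), and CKS1B, a CDK-binding subunit (0.71, SE 0.132). ECT2 had 73.6 and 85.5 CPM in the knockdown, 79.7 and 72.7 under control hairpin 2, and 21.5 and 26.1 under control hairpin 1. Neither ECT2 nor CKS1B was called against control hairpin 2 (log2FC 0.06 and -0.10), and both were above control hairpin 1 (1.74 and 1.53). Neither was called against the mean with pooled controls (adjusted p = 0.442 and 0.572). The third gene that did not fall, CKS2, was not called (-0.46, adjusted p = 0.0973). Between the control hairpins all 30 were higher under control hairpin 2 (22.8% of all rows; median 2.11), as were 26 of the 29 G1/S genes (median 1.17). With pooled controls the falls numbered 9 of 29 and 9 of 30, where 1518 of all 17163 rows were lower.

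**Figure D4:**
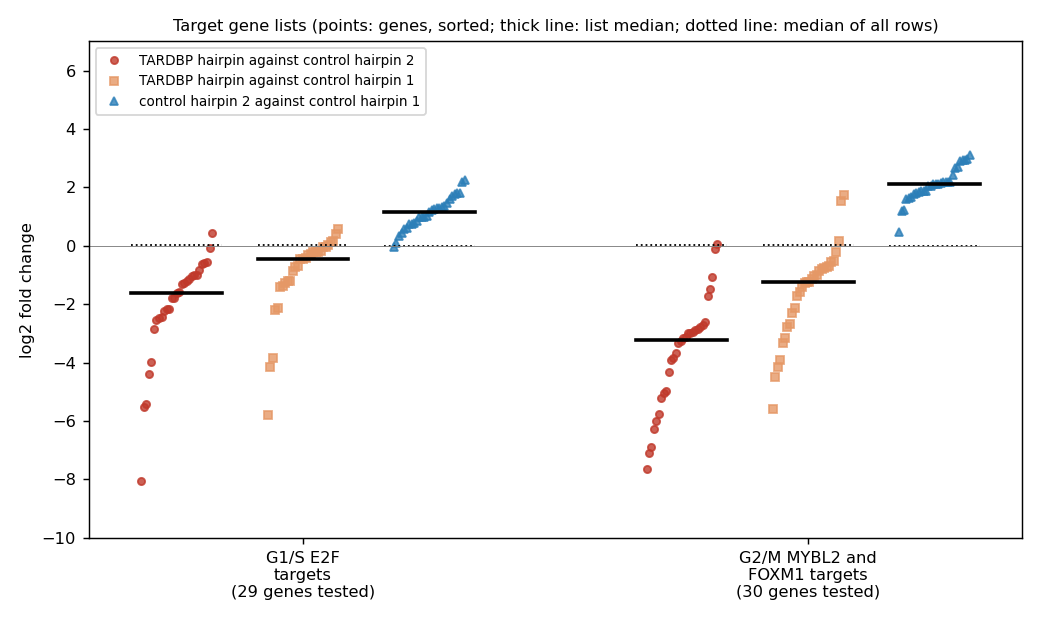
Log2FC of the G1/S genes controlled by E2F and of the G2/M genes controlled by MYBL2 and FOXM1 in 3 comparisons; points are genes in sorted order, the thick line is the list median and the dotted line the median of all rows. The G2/M medians against control hairpins 2 and 1 are -3.21 and -1.23, further from 0 than the G1/S medians of -1.63 and -0.45.

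The genes with the closest course over the 6 libraries were ranked by the root mean square difference of centred log2 CPM among 14504 genes. This is a description over 6 libraries, and the library pairs share a hairpin. For MYBL2 they were TK1, MKI67, IQGAP3, CKAP2L and DLGAP5, with differences of 0.128 (TK1) to 0.626 on the log2 scale. TK1, the thymidine kinase of S phase, had 2 and 2 counts in the knockdown, 427 and 758 under control hairpin 2, and 82 and 161 under control hairpin 1. CKAP2L also had 2 and 2 counts in the knockdown. At such counts the prior count of 2 in log2 CPM sets much of the value, so these differences are uncertain. By the fit the log2FC against control hairpin 2 was -8.05 for TK1 and -7.26 for MYBL2. For E2F1 they were ZNF367, DUSP5, CCNE2, GALNT16 and SLC7A1 (0.138 to 0.236), among which CCNE2 encodes a cyclin E. For E2F2 they were SPC24, MCM10, CDC45, PEG10 and TOP2A (0.207 to 0.297). For FOXM1 they were IL32, PKMYT1, KIFC1, SAPCD2 and BUB1 (0.182 to 0.276). Among the 10 genes themselves the closest pair was E2F3 and E2F4 (0.300) and the most distant MYBL2 and E2F5 (3.20).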

How the data were processed

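Strand-specific libraries of rRNA-depleted total RNA were sequenced, and bcl2fastq, STAR 2.5.2b and hg19 are named in the submitters' processing notes. Raw counts were deposited for each library, with a row for every gene symbol or repeat subfamily. The sources used here give no counting tool, annotation or strand setting. Genes and repeat families were fitted together in R 4.3.3 with edgeR 4.0.16: filterByExpr by hairpin (minimum count 10, total 15), TMM scaling, and 1 quasi-likelihood model of 3 groups over 6 libraries (3 residual degrees of freedom). Benjamini-Hochberg adjustment ran over the 17163 rows tested. SE was taken as the size of log2FC divided by root F. Log2 CPM used a prior count of 2. Alternatives were RLE and upper quartile scaling, no filter, gene rows only, a replicate block, DESeq2 1.42.0, limma 3.58.1 voom, pooled controls, and each library left out; their use on target lists was added after seeing the data. The fitting code was tested on simulated counts. The genes and lists were chosen with earlier results of these data known. All 10 genes are named, with up to 3 genes of lowest p per list, all of any count of 5 or fewer, and the 5 nearest courses for 4 genes; others named were chosen after values were seen. Library totals of 18605745 to 21698339 counts limit precision for genes with few counts, and counting intervals cover counting error only. Protein sequences were not used here.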

Additional observations from a re-analysis of the deposited data

How the results depend on the processing

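In the knockdown the falls of MYBL2, E2F1, E2F2, E2F4 and E2F8 kept their direction and call under all 14 alternatives against the mean of both controls, and under all 13 against each control alone. Pooling the 4 controls gave 2572 called rows (1518 lower and 1054 higher), against 8269. It gave 0 of the 10 genes higher against 2, and 9 falls each among the G1/S and G2/M genes. Leaving out 1 library gave 1 to 2 of the 10 genes higher against the mean of both controls, 1 in each case against control hairpin 1 (2 with all libraries), and 0 to 1 against control hairpin 2. It gave 4328 to 7344 called rows between the controls, against 7418, the low values being 4328 without control hairpin 1 replicate 1 and 4339 without control hairpin 2 replicate 2. Without a filter, with DESeq2 and with the replicate block 1 gene was higher against control hairpin 1, and under upper quartile scaling 2 were against control hairpin 2. Upper quartile scaling moved the median of all rows to 0.167 (log2FC against the mean of both controls), against 0.0436. E2F3 changed sign against the mean of both controls under upper quartile scaling (0.096), with gene rows only (3.35e-04) and without knockdown replicate 2 (0.0095), and E2F6 between the controls without control hairpin 1 replicate 1 (0.038); over the libraries left out in turn these log2FC spanned -0.073 to 0.0095 and -0.207 to 0.038. None of these was called, and the cause was not tested. The labels do not say whether libraries with the same replicate number belong together. Differences of replicate 2 and 1 correlated at -0.228 and -0.247 between the knockdown and control hairpins 1 and 2, and at 0.232 between the controls. Each hairpin gives a single such difference, so these values cannot settle whether libraries were paired. The replicate block left 7643 rows called against the mean of both controls, with 7 of the 10 genes lower and 2 higher. It ended the call of E2F3 against control hairpin 1 (adjusted p = 0.067), as did DESeq2 (0.0991) and no filter (0.0757). Where a library was left out, the lone library of its hairpin was assumed to vary like the others. MYBL2, E2F2 and E2F8 had at most 12 counts per knockdown library, which limits how precisely their changes are known.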
